A study of Drosophila melanogaster with 12 samples.

Results

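The glutathione S-transferase genes were followed as a family through whole female fruit flies, wild type or mutant for the brain hormone gene Ptth, at a young and an old adult age. Members were all rows of the deposited gene table whose symbol starts with GstD, GstE, GstO, GstS, GstT or GstZ followed by a digit, which gave 35 of 17714 rows. They comprise 11 Delta, 14 Epsilon, 3 Omega, 1 Sigma, 4 Theta and 2 Zeta genes. Of these, 33 were tested, having reached a normalised count of 10 or more in 3 or more of the 12 libraries. GstD4 and GstD6 had too few reads and were not tested. The groups were old Ptth mutants, old wild type, young Ptth mutants and young wild type, with 3 libraries each and about 15 pooled females per library. The labels give the genotypes as ptth120BC2 and wOB, and the submitters' design text gives the ages as 5 and 1 weeks. Poly(A) RNA of whole bodies was sequenced, and the files hold read counts per gene divided by a size factor per library, called normalised counts below.

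Glutathione S-transferases join the tripeptide glutathione to reactive compounds, which makes these easier to export, and some of them reduce peroxides or isomerise metabolites. The Delta and Epsilon classes belong to insects and other arthropods, have multiplied in tandem on the chromosome and are known for insecticide breakdown. Omega, Sigma, Theta and Zeta enzymes have relatives in vertebrates. Several of the fly genes, GstD1 first among them, are standard reporters of the oxidative stress factor cap-n-collar C, the fly relative of Nrf2. Ptth encodes the prothoracicotropic hormone, a brain signal that starts ecdysteroid production by the prothoracic gland of the larva.

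Depth lay between 16448805 and 28206866 reads per library. The labels do not state the lesion of the mutant allele, so the Ptth transcript is no firm check of the genotype. It lay at 43.6 to 58.6 normalised counts in old mutants against 75.3 to 76.8 in old wild type, and at 18.5 to 28.3 in young mutants against 25.5 to 39.9 in young wild type. Markers of the male reproductive tract (32 genes) summed to between 9066 and 27423 normalised counts in 3 young libraries labelled female, namely Ptth mutant young replicate 1 and wild type young replicates 1 and 2. Elsewhere, in 9 libraries, it did not pass 239, with 10 to 18 of the 32 markers at 0. Young results that passed the adjusted p are therefore also given without these libraries. So are the sums of the family, the Delta and Epsilon classes, and the midgut, fat body, Malpighian tubule and female reproductive markers. Leaving out these libraries keeps a single young wild type library, so that the spread of the remaining groups stands in for it. Female reproductive markers (16 genes) were present in every library, with sums of 675550 to 871325 in old mutants against 482785 to 632683 in old wild type, and 541567 to 597424 in young mutants against 503295 to 790591 in young wild type. In whole bodies, fewer cells of a type and less RNA per cell cannot be told apart.

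Per kilobase of exon, the level of the highest member was 4334-fold that of the lowest. GstD1 was the most abundant with a mean of 12484 normalised counts per kb over the 12 libraries, followed by GstE12 with 3343 and GstE6 with 2216. GstT4, GstE9, GstO3, GstS1, GstT1 and GstO2 lay between 1882 and 1021 per kb. The Delta class held both the highest gene and the 5 lowest, GstD8, GstD7, GstD11, GstD4 and GstD6, whose levels lay between 57.3 and 2.88 per kb. GstD1 stood apart from GstE12 in every group. Its group means were lowest in wild type, where they were still above those of GstE12.

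**Figure D1:**
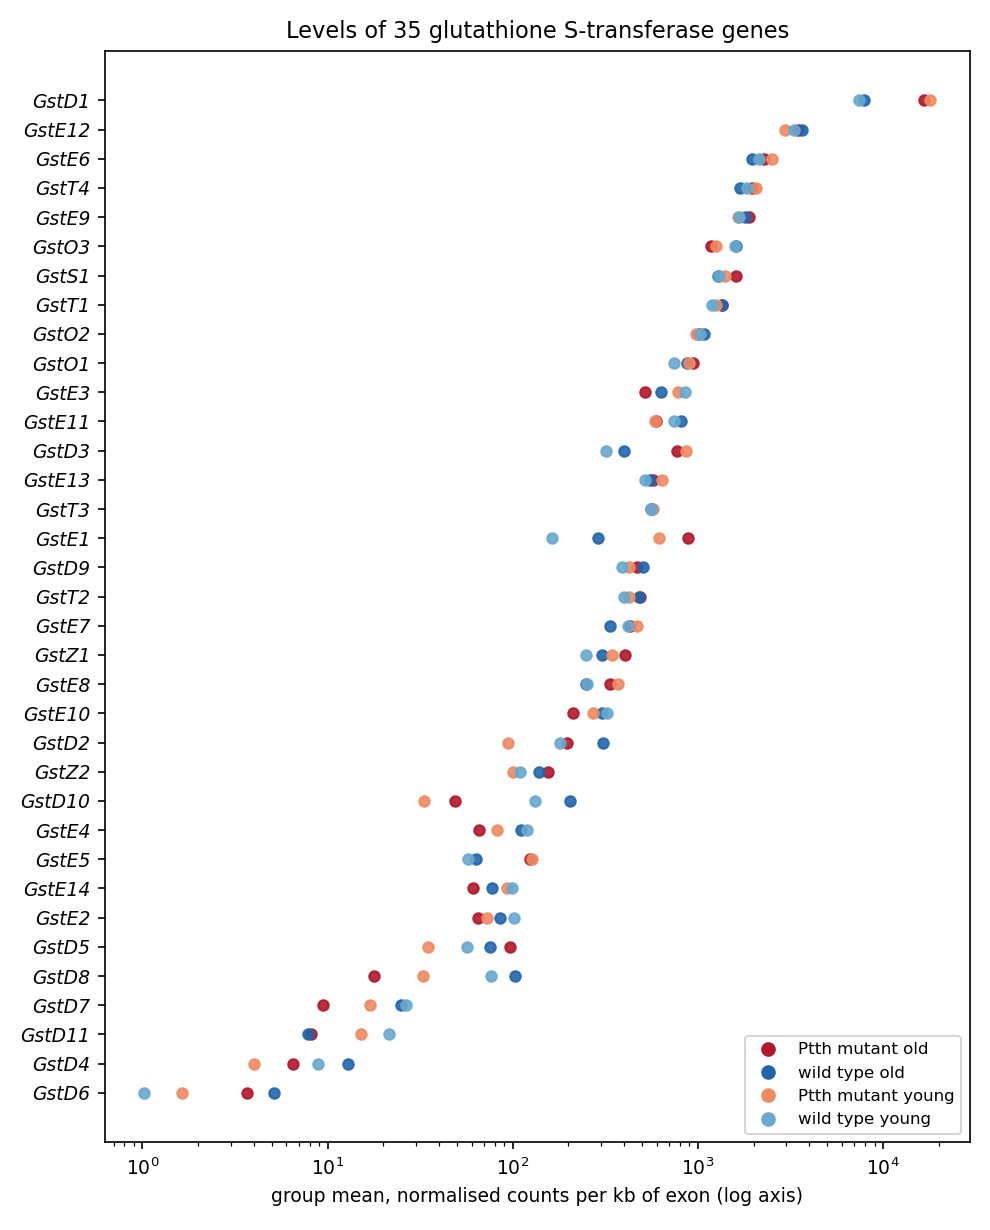
Mean normalised count per kilobase of exon (log axis) of each of the 35 glutathione S-transferase genes in old Ptth mutants, old wild type, young Ptth mutants and young wild type, with 1 point per group of 3 libraries. Genes are ordered by their mean over all libraries, from GstD1 at 12484 per kb to GstD6 at 2.88 per kb.

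The first comparison set Ptth mutants against wild type of the same age. A small set of Delta and Epsilon genes differed strongly, in both directions, and the other classes stayed below the fold threshold. GstD1, GstD3, GstE1 and GstE5 were higher in mutants at both ages, GstD10 was lower at both ages, and GstD8 was lower at the old age. In the old flies 6 of 33 members were called (limma, adjusted p below 0.05 and more than 1.5-fold), 4 higher and 2 lower, where 4.17% of all 11403 genes were called (1.46% higher and 2.71% lower). In the young flies 5 of 33 were called, 4 higher and 1 lower, where 4.81% of all genes were called (1.03% higher and 3.78% lower). Called at both ages in 1 direction were 5 members, against 2.37% of all genes. The median absolute log2 change of the members was 0.36 at the old age and 0.30 at the young age, beside 0.13 and 0.23 over all genes. For the Delta class alone it was 0.99 and 1.05. The median signed change of the members was 0.02 and 0.01, since 17 members had a positive and 16 a negative log2 change at either age. Without the 3 libraries with male transcripts only GstE1 was called at the young age, where 1.01% of all genes were called.

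**Figure D2:**
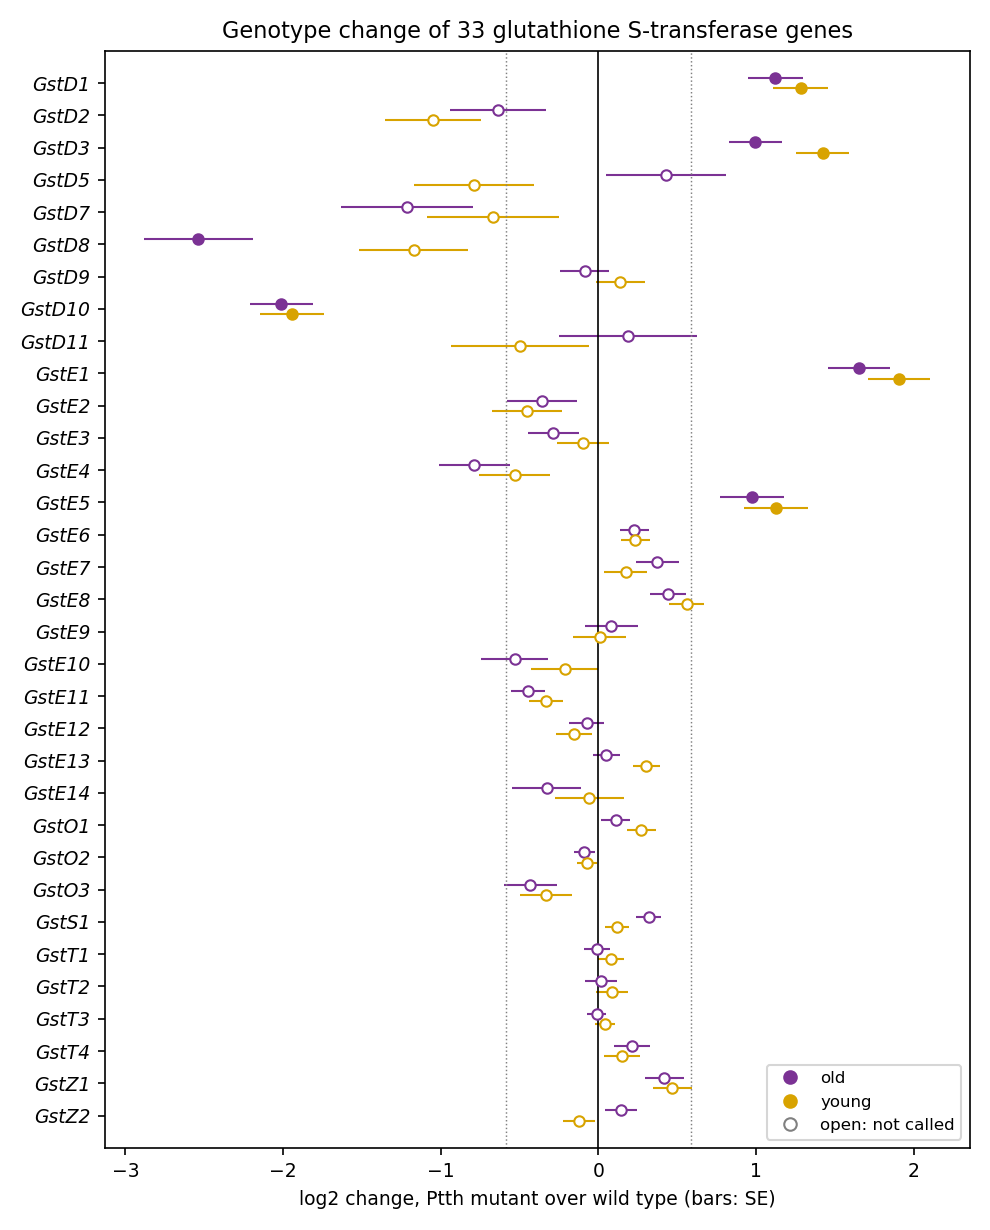
Log2 change (points) with SE (bars) of Ptth mutants over wild type for 33 glutathione S-transferase genes, at the old age (purple) and the young age (yellow). Filled points passed both thresholds, dotted lines mark the 1.5-fold change, and the filled points belong to GstD1, GstD3, GstD8, GstD10, GstE1 and GstE5.

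GstD1 is the most abundant member and the usual reporter gene of the family. It read 13980.2, 13989 and 14084 normalised counts in old mutants against 8932, 4569.6 and 6541 in old wild type. In the young flies it read 14176, 15094 and 16244 in mutants against 6071, 6401 and 6209.8 in wild type. Every mutant library lay above every wild type library, and the 3 old mutant libraries lay close together (SD 57.5 around a mean of 14018). GstD1 was 2.10-fold higher in mutants at the old age (log2 change 1.12 ± 0.17, limma adjusted p = 0.00233) and 2.44-fold higher at the young age (1.28 ± 0.17, adjusted p = 0.000897). Between libraries with male transcripts alone the young difference was 1.19 on the log2 scale, and between those without it was 1.33 (adjusted p = 0.180 in the fit without those libraries).

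GstD3, a Delta gene on the other strand of the same cluster, moved in the same direction. Its normalised counts were 601, 555 and 562 in old mutants against 389.5, 209.9 and 289 in old wild type. They were 611, 658 and 656 in young mutants and 219.7, 252 and 245 in young wild type. The groups did not overlap at either age. GstD3 was 1.93-fold higher in mutants at the old age (0.99 ± 0.17, limma adjusted p = 0.00433) and 2.69-fold higher at the young age (1.42 ± 0.17, adjusted p = 0.000348). Its young log2 difference was 1.37 between the libraries with male transcripts and 1.42 between those without (adjusted p = 0.131 without them). When only the groups of the comparison entered the model, GstD1 and GstD3 missed the threshold at the old age (adjusted p = 0.0667 and 0.0753).

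GstD10 moved the other way although it lies in the same cluster as GstD1. It read 50.3, 36.9 and 41.2 normalised counts in old mutants against 232, 138 and 164 in old wild type. In young flies it read 26.4, 32.5 and 28.5 in mutants against 112, 128 and 104 in wild type. Each mutant library had less than any wild type library of either age. The fitted log2 change was -2.01 ± 0.20 at the old age (limma adjusted p = 0.000120) and -1.94 ± 0.20 at the young age (adjusted p = 0.000147), and the mean in wild type was 4.16-fold and 3.95-fold that in mutants. The young log2 difference was -2.14 between libraries with male transcripts and -1.74 between those without (adjusted p = 0.0780 without them).

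GstD8 was the member with the widest genotype difference, at the old age. Its normalised counts were 7.44, 21.9 and 13.7 in old mutants against 104, 63.0 and 82.1 in old wild type. In young mutants they were 31.3, 21.1 and 27.4, and in young wild type 50.0, 75.0 and 58.9. Mutants and wild type did not overlap at either age, but the counts are low and the old mutant libraries varied widely (SD 7.26 around a mean of 14.4). The old log2 change was -2.54 ± 0.34 (limma adjusted p = 0.000971), with a wild type mean 5.78-fold that of mutants. At the young age the log2 change was -1.17 ± 0.34 and missed the threshold (limma adjusted p = 0.0547), and it was -1.26 without the libraries with male transcripts. The young change was called with another scaling (TMM, limma adjusted p = 0.0497) and in DESeq2 (adjusted p = 0.00641).

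**Figure D3:**
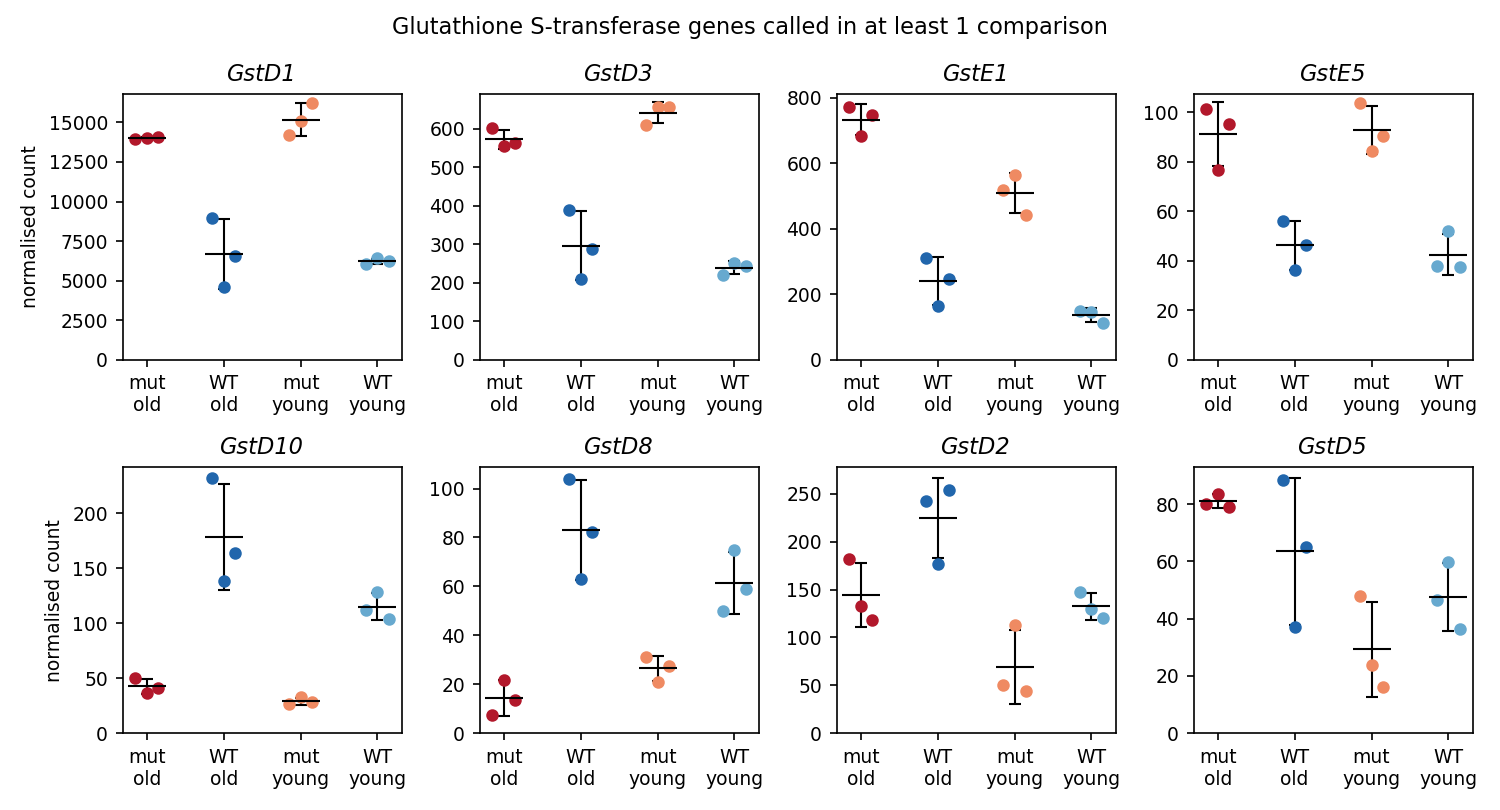
Normalised counts (vertical axes from 0) of the 8 glutathione S-transferase genes called in at least 1 comparison, in old Ptth mutants, old wild type, young Ptth mutants and young wild type. Points are libraries, the wide line is the mean and the bars are the SD (n = 3); GstD1 lies at 13980.2 or above in mutants and at 8932 or below in wild type.

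Of the remaining Delta genes tested, none was called between genotypes. GstD2 had a log2 change of -0.64 ± 0.30 at the old age (limma adjusted p = 0.329) and -1.05 ± 0.30 at the young age (adjusted p = 0.0521). The young change of GstD2 was called with TMM scaling (limma adjusted p = 0.0463) and in DESeq2 (adjusted p = 0.0251). GstD7 had -1.21 ± 0.42 (adjusted p = 0.135) and -0.67 ± 0.42 (adjusted p = 0.275), at levels of 5.98 to 25.1 normalised counts. GstD5, GstD9 and GstD11 had values of either sign between the ages, and their adjusted p lay at 0.170 or above. The 2 untested genes had few reads in every group. GstD4 read 2.99 to 6.46 normalised counts in old mutants against 6.68 to 11.9 in old wild type, and GstD6 was at 0 in 2 young wild type libraries. Leaving out wild type young replicate 3 raised the number of members called at the young age to 9, the additions being GstD2, GstD8, GstE2 and GstE8. In that fit the share of all genes called rose as well, to 19.9% from 4.81% with all libraries.

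Among the Epsilon genes, GstE1 had the largest rise. GstE1 read 771, 683 and 748 normalised counts in old mutants against 311, 164 and 246 in old wild type. It read 519, 566 and 443 in young mutants against 149, 147 and 111 in young wild type. The lowest mutant library of either age lay above the highest wild type library. GstE1 was 3.05-fold higher in mutants at the old age (1.65 ± 0.20, limma adjusted p = 0.000444) and 3.76-fold higher at the young age (1.91 ± 0.20, adjusted p = 0.000155). It was the single member that also passed at the young age without the 3 libraries with male transcripts (2.16, adjusted p = 0.0492).

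GstE5 was higher as well, from a lower level. Its normalised counts were 101, 76.7 and 95.3 in old mutants against 56.2, 36.3 and 46.3 in old wild type. They were 104, 84.4 and 90.4 in young mutants against 37.8, 51.8 and 37.3 in young wild type, again without overlap. The change was 1.97-fold at the old age (0.98 ± 0.20, limma adjusted p = 0.0148) and 2.19-fold at the young age (1.13 ± 0.20, adjusted p = 0.00637). The old call was lost without Ptth mutant old replicate 1 (adjusted p = 0.0725), Ptth mutant old replicate 3 (0.0652) or wild type old replicate 3 (0.0523), after quantile normalisation (0.181) and with only the old groups in the model (0.0624). At the young age the log2 difference was 1.21 both among libraries with and among those without male transcripts (adjusted p = 0.155 without them), and with only the young groups in the model its adjusted p was 0.0516.

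The other 12 Epsilon genes were not called between genotypes. GstE8 passed the adjusted p but not the fold threshold, with log2 changes of 0.44 ± 0.11 at the old age (limma adjusted p = 0.0409) and 0.56 ± 0.11 at the young age (adjusted p = 0.0118). Without the libraries with male transcripts the young change was 0.48 (adjusted p = 0.372). GstE11 likewise passed the adjusted p alone at the old age (-0.45 ± 0.11, adjusted p = 0.0302). GstE4 had -0.79 ± 0.22 at the old age (adjusted p = 0.0660), with groups that did not overlap at either age.

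GstE14, also called noppera-bo, acts in ecdysteroid synthesis in the prothoracic gland of the larva. The study states that this gland is gone once adulthood begins, and all libraries here are of adults. GstE14 read 56.8, 75.7 and 51.7 normalised counts in old mutants against 99.2, 64.9 and 68.9 in old wild type. In young flies it read 93.8, 89.7 and 98.6 in mutants against 115, 111 and 73.7 in wild type. The genotypes overlapped at both ages, with log2 changes of -0.33 ± 0.22 (limma adjusted p = 0.543) and -0.06 ± 0.22 (adjusted p = 0.853). Between old and young mutants GstE14 had -0.62 ± 0.22 (adjusted p = 0.143), without overlap of the libraries.

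No gene of the Omega, Sigma, Theta or Zeta class was called in limma with the deposited scaling. GstS1, the sole Sigma gene and an abundant enzyme of flight muscle that removes lipid peroxidation products, read 3701, 3441 and 3833 normalised counts in old mutants against 2911, 2955 and 2926 in old wild type. In young mutants it read 3089.7, 3295 and 3159, and in young wild type 2785, 3336 and 2721. The old groups did not overlap and the young groups did. Its old change was small and precise (0.32 ± 0.08, limma adjusted p = 0.0317, under the fold threshold), and its young change was 0.12 ± 0.08 (adjusted p = 0.301).

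The Zeta genes encode enzymes related to maleylacetoacetate isomerase of tyrosine breakdown. GstZ1 had a log2 genotype change of 0.42 ± 0.12 at the old age (limma adjusted p = 0.0781) and 0.47 ± 0.12 at the young age (adjusted p = 0.0397), below the fold threshold. Quantile normalisation brought the young change of GstZ1 to a call (0.71, adjusted p = 0.0447), and without the libraries with male transcripts it was 0.40 (adjusted p = 0.558). GstZ2 had 0.14 ± 0.10 and -0.12 ± 0.10. The 4 Theta genes lay between -0.01 and 0.21 at the old age and between 0.04 and 0.15 at the young age. The 3 Omega genes, a class that includes dehydroascorbate reductases, lay between -0.43 and 0.11 at the old age and between -0.33 and 0.27 at the young age.

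Counted without a test, 10 members at the old age and 9 at the young age had every mutant library above every wild type library. Over all genes this held for 11.5% and 11.6%. In the opposite direction it was 6 and 7 members, beside 14.9% and 13.7% of all genes. Across the 33 members the log2 changes at both ages had a correlation of r = 0.87, a description across genes that are not independent replicates. These comparisons use separate libraries but a common estimate of the spread.

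The called genes are neighbours on the chromosome, interleaved with genes that were not called. The 11 Delta genes lie within 20849 bases of chromosome 3R, from 12364776 to 12385624 of the Release 6 assembly. Their order is GstD10, GstD9 and GstD1 on the minus strand, then GstD2, GstD3, GstD4, GstD5, GstD6, GstD7, GstD8 and GstD11 on the plus strand. GstD9, with 252 bases to GstD1 and 427 bases to GstD10, had log2 changes of -0.09 ± 0.16 at the old age and 0.14 ± 0.16 at the young age. Along the cluster GstD10 was lower, GstD1 and GstD3 were higher and GstD8, at the old age, was lower. GstD9 lies between GstD10 and GstD1, and GstD4 to GstD7 between GstD3 and GstD8. None of the 10 tested genes on either side of the cluster was called at either age. At the old age their median absolute log2 change was 0.36 on the lower-coordinate side and 0.07 on the other, beside 0.13 over all genes. Within the cluster lies 1 tested gene that is no family member, the early embryo gene CG10035, which was called lower at the young age. The 10 early embryo markers found, CG10035 among them, summed to 3679.7 to 4355 in young mutants, with 4 to 8 of them at 0, against 4657 to 5349 in young wild type, with at most 1 at 0. The part of embryonic RNA in that call was not tested.

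In the Epsilon cluster, 10 genes lie within 13198 bases of chromosome 2R, from 18396638 to 18409835. GstE10 is on the minus strand and GstE1 to GstE9 follow on the plus strand. GstE1 and GstE5 are separated by GstE2, GstE3 and GstE4, whose log2 changes lay between -0.79 and -0.29 at the old age and between -0.53 and -0.10 at the young age. GstE1 shares 20 exon bases with GstE10 on the opposite strand, which is 2.41% of its exons. In all, 7 members overlap an exon of another gene on the opposite strand, most of all GstT2 with 25.1% of its exons, and reads there cannot be told apart where counting ignores strand. Reads that fit several of these similar copies were assigned, or left out, by the authors' counting, so values of close neighbours are uncertain to that extent. Of the 10 tested genes on each side, 1 was called at the old age (CG16836, lower) and none at the young age. The flank with lower coordinates nevertheless had a median absolute log2 change of 0.84 at the old age and 0.25 at the young age. On the other side it was 0.09 and 0.13, and over all genes 0.13 and 0.23. The other 4 Epsilon genes, GstE11, GstE12, GstE13 and GstE14, lie elsewhere on 2R, and none of them was called.

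**Figure D4:**
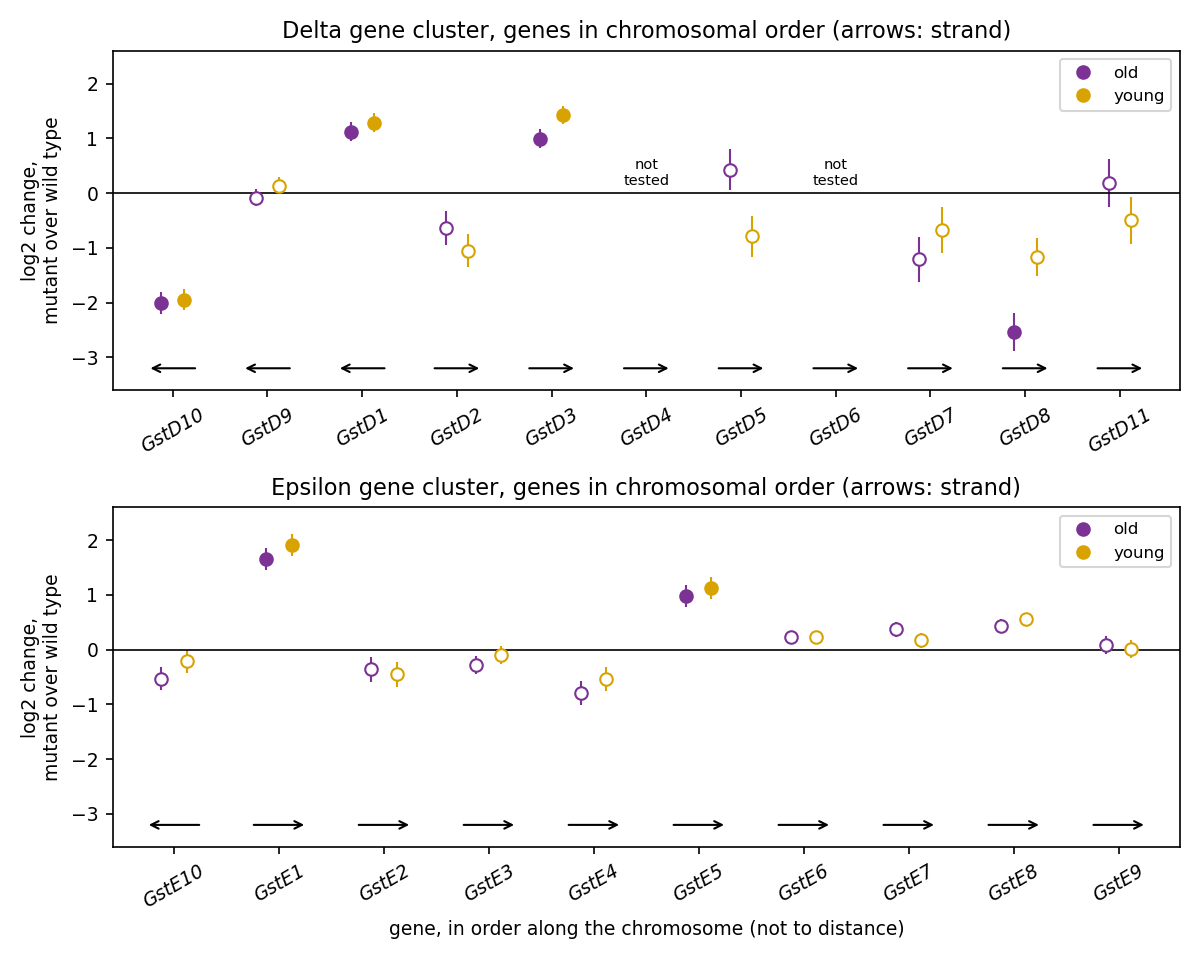
Log2 change of Ptth mutants over wild type with SE for the genes of the Delta cluster (top) and the Epsilon cluster (bottom) in chromosomal order, at the old age (purple) and the young age (yellow), with arrows for the strand. Filled points were called; GstD10 and GstD8 lie below 0 and GstD1, GstD3, GstE1 and GstE5 above it.

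Summed over the family, mutants carried more normalised counts of these genes, and GstD1 made up most of the difference. The sum over all 35 genes averaged 39806 ± 863 in old mutants against 31455 ± 4243 in old wild type, and 39688 ± 2191 in young mutants against 29907 ± 2193 in young wild type (SD, n = 3 each). GstD1 took 34.3% to 36.1% of it in old mutants against 16.9% to 25.1% in old wild type. In young flies it took 36.8% to 39.4% in mutants against 19.9% to 22.3% in wild type. Without GstD1 the sum of the other 34 genes ranged over 24924 to 26741 in old mutants and 22536 to 26651 in old wild type. In the young groups it ranged over 23221 to 25970 in mutants and 21691 to 25847 in wild type, so these ranges overlapped at both ages. Without the libraries with male transcripts the young sums without GstD1 were 23221 and 25970 in mutants against 21691 in wild type. In the remaining young libraries all 35 genes summed to 38315 and 42214 in mutants against 27901 in wild type, and the Delta genes to 16268 and 17407 in mutants against 7074 in wild type. By class, the Delta sum averaged 15266 ± 65.5 in old mutants against 7963 ± 2471 in old wild type, and 16336 ± 1039 in young mutants against 7180 ± 256 in young wild type. The Epsilon sum was 11529 ± 671 in old mutants against 11226 ± 1365 in old wild type, and 11049.6 ± 669 in young mutants against 10864 ± 1340 in young wild type. In the young libraries without male transcripts the Epsilon sum was 10310 and 11612 in mutants against 9522 in the single wild type library. The rises of GstE1 and GstE5 are small beside the counts of GstE12, GstE6 and GstE9 in this class.

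Markers of tissues known for glutathione S-transferase expression were summed in the same libraries. Midgut digestive enzyme genes (15 of 15 found, none at 0) summed to 220245 to 273567 normalised counts in old mutants against 133813 to 171035 in old wild type. In young flies they summed to 186006 to 239802 in mutants against 143066 to 269283 in wild type. Fat body markers (8 of 8 found, at most 1 at 0) summed to 94613 to 106366 in old mutants against 78869 to 90783 in old wild type, and to 71307 to 76749 in young mutants against 60627 to 94757 in young wild type. The midgut, fat body and female reproductive sums thus differed without overlap at the old age. The direction was that of GstD1, GstD3, GstE1 and GstE5 and opposite to that of GstD8 and GstD10. At the young age they overlapped with all libraries. Without the libraries with male transcripts the midgut sums were 186006 and 188979 in mutants against 143066 in wild type, and the fat body sums 76749 and 71307 in mutants against 60627 in wild type, which is the same direction as at the old age. The female reproductive sums were then 545940 and 541567 in mutants against 503295 in wild type, also in that direction. Malpighian tubule markers (7 of 7 found, none at 0) overlapped at both ages, with 10703 to 11332 in old mutants against 9827 to 11204 in old wild type, and 10054.5 to 10496 in young mutants against 9687 to 11348 in young wild type. Without the libraries with male transcripts their young sums were 10221 and 10054.5 in mutants against 9687 in wild type. Oenocyte markers (4 of 5 found) overlapped at both ages, with 127149 to 155507 in old mutants against 122972 to 149693 in old wild type. Haemocyte markers (4 of 4 found) also overlapped at both ages. Muscle markers (12 of 12 found) overlapped at the old age. At the young age muscle markers summed to 97766 to 108755 in mutants against 110114 to 149517 in wild type. The part of tissue proportions in the genotype differences was not tested.

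The second comparison asked how the genes differed between old and young flies of each genotype. Only 2 members were called between ages, both of them Delta genes in mutants. In wild type 0 of 33 members were called (limma, adjusted p below 0.05 and more than 2-fold), where 3.05% of all genes were called. At an unadjusted p under 0.05 there were 12 members, beside 25.7% of all genes, and edgeR called 0 and DESeq2 1 (GstD11). Leaving out wild type old replicate 2 gave 1 call (GstE1), and so did leaving out wild type old replicate 3 or wild type young replicate 3 (GstD11). In mutants 2 members were called, both higher in old flies, where 1.81% of all genes were called (0.789% higher). The median absolute log2 change of the members was 0.20 in mutants and 0.19 in wild type, beside 0.12 and 0.17 over all genes. All libraries of one age lay above those of the other for 15 members in mutants (7 higher and 8 lower in old flies) and for 8 in wild type (7 higher and 1 lower). Over all genes the shares were 13.2% higher and 11.5% lower in mutants, and 10.7% higher and 11.6% lower in wild type. Muscle markers summed to 61624 to 66617 in old against 97766 to 108755 in young mutants. In wild type they summed to 52337 to 67391 in old against 110114 to 149517 in young flies. Fat body, Malpighian tubule and female reproductive markers were higher without overlap in old than in young mutants, and overlapped between ages in wild type. Female reproductive markers summed to 675550 to 871325 in old against 541567 to 597424 in young mutants. Haemocyte and early embryo markers were lower without overlap in old than in young wild type, and overlapped between ages in mutants. The part of tissue proportions in the age differences was not tested.

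**Figure D5:**
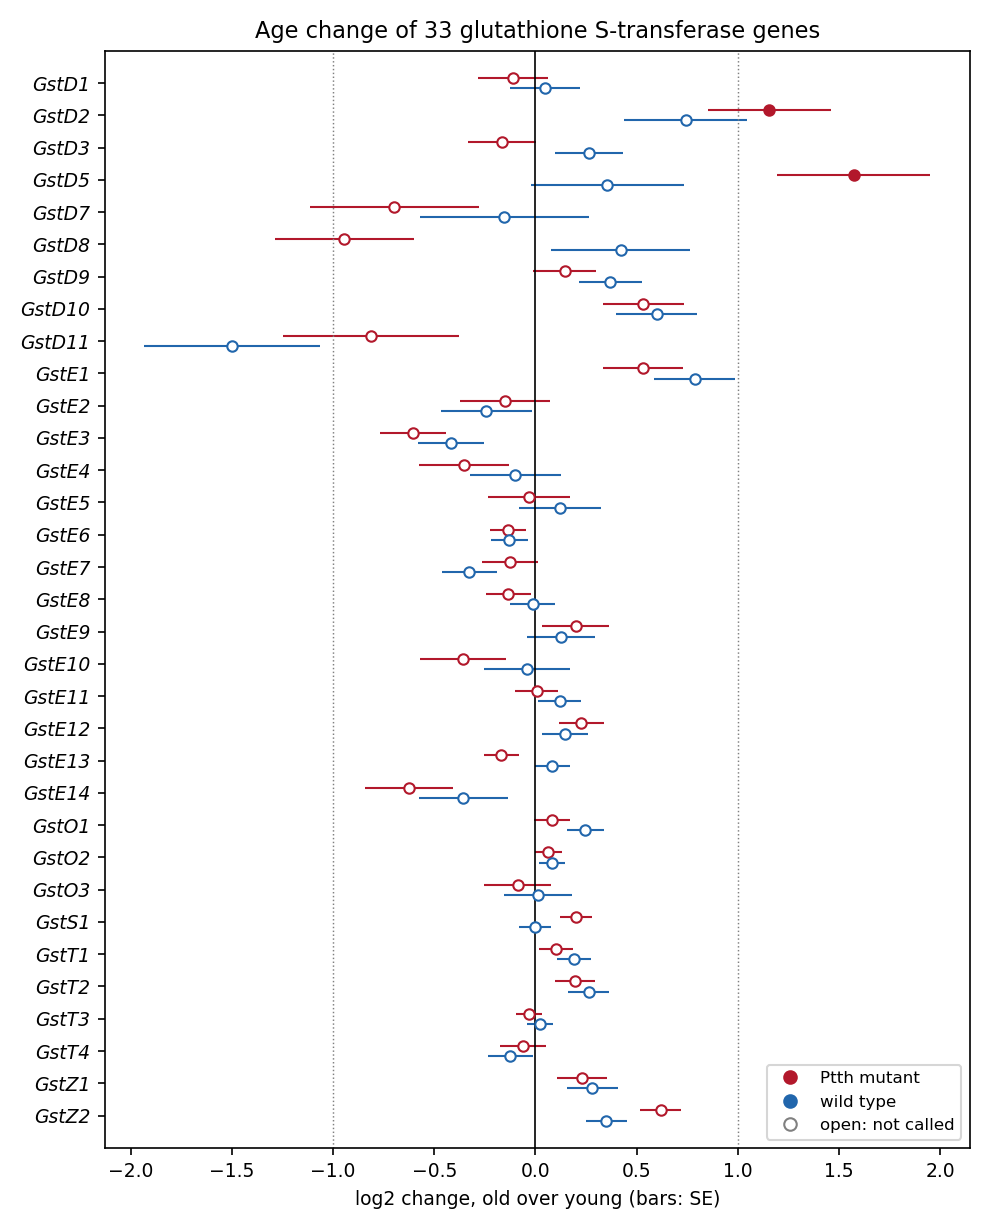
Log2 change of old over young flies with SE for 33 glutathione S-transferase genes in Ptth mutants (red) and wild type (blue). Dotted lines mark the 2-fold change, and the filled points, GstD2 and GstD5 in mutants, passed both thresholds.

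GstD5 was higher in old than in young mutants. It read 80.0, 83.7 and 79.1 normalised counts in old mutants against 47.9, 23.7 and 16.3 in young mutants, and 88.4, 37.2 and 64.9 in old wild type against 46.4, 59.8 and 36.3 in young wild type. The mutant ages did not overlap and the wild type ages did. The mutant change was 2.76-fold (1.57 ± 0.38, limma adjusted p = 0.0297), and 1.99 on the log2 scale without the libraries with male transcripts (adjusted p = 0.0277). The call was lost without Ptth mutant young replicate 2 or 3 or any 1 of the 3 old mutant libraries, with adjusted p between 0.0888 and 0.124, and in edgeR (0.0793). In wild type the change was 0.35 ± 0.38 (adjusted p = 0.550).

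GstD2 was likewise higher in old mutants, at 182, 133 and 119 normalised counts in old mutants against 50.8, 113 and 43.7 in young mutants. In wild type it read 243, 177 and 254 in old against 148, 130.0 and 119.9 in young flies. Neither genotype showed overlap between ages. The mutant change was 2.09-fold (1.16 ± 0.30, limma adjusted p = 0.0460) and that of wild type 0.74 ± 0.30 (adjusted p = 0.159). The mutant call was lost under 12 of 18 alternatives, among them edgeR (adjusted p = 0.107), the fit without libraries with male transcripts (1.00, adjusted p = 0.238) and the omission of Ptth mutant young replicate 1 or 3 or any 1 old mutant library.

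Below the fold threshold, GstE1 had a log2 age change of 0.79 ± 0.20 in wild type (limma adjusted p = 0.0303) and 0.53 ± 0.20 in mutants (adjusted p = 0.178). Without the libraries with male transcripts the wild type change was 1.06 (adjusted p = 0.159). GstZ2 had 0.62 ± 0.10 in mutants (adjusted p = 0.00303, and 0.0265 without those libraries) and 0.35 ± 0.10 in wild type (adjusted p = 0.0533). GstD10 had 0.53 ± 0.20 in mutants and 0.60 ± 0.20 in wild type, so its old and young libraries separated in both genotypes although neither change was called (adjusted p = 0.181 and 0.0944). GstD1, by contrast, had -0.11 ± 0.17 in mutants and 0.05 ± 0.17 in wild type (adjusted p = 0.840 and 0.872). GstD11, at 3.58 to 28.7 normalised counts, had -1.50 ± 0.43 in wild type (adjusted p = 0.0562), a value that took the other sign under quantile normalisation (0.27).

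The interaction asked whether the age change of a gene differed between mutants and wild type. In limma 0 of 33 members passed an adjusted p of 0.05, where 0.158% of all genes did, and edgeR and DESeq2 called 0 as well. At an unadjusted p under 0.05 there were 2 members, beside 6.79% of all genes. GstD5 had an interaction of 1.22 ± 0.54 (adjusted p = 0.718) and GstD8 of -1.36 ± 0.49 (adjusted p = 0.581). Whether the genotype difference of GstD8 was larger at the old age was thus not shown by this test.

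Spread among libraries of a group also differed for this family. The median coefficient of variation over the 33 members was 6.27% in old mutants against 16.9% in old wild type, and 9.25% in young mutants against 11.4% in young wild type. Over all genes it was 7.03% against 9.59% and 8.68% against 14.1%. In old wild type, replicate 2 was the lowest of the 3 libraries for 26 of 33 members, as it was for 42.7% of all genes, and replicate 1 was the highest for 23 members, as for 31.3% of all genes. The median ratio of replicate 2 to the mean of the other old wild type libraries was 0.810 for the members and 0.971 over all genes. GstD1 had the smallest coefficient of variation in old mutants, 0.410%, and GstS1 the smallest in old wild type, 0.768%.

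Genes that work with these enzymes were counted from lists. Of 25 other glutathione and redox genes 23 were tested, and only dhd, a thioredoxin of the female germ line, was called, higher in mutants at the old age (0.67 ± 0.16, limma adjusted p = 0.0327) and at the young age (0.76 ± 0.16, adjusted p = 0.0165). Without the libraries with male transcripts its young change was 0.42 (adjusted p = 0.481). The female reproductive markers, given above, were higher without overlap in old mutants too, and their part in the change of dhd was not tested. The list medians were 0.01 at the old age and -0.00 at the young age, beside medians over all genes of 0.00 and -0.02. No gene of this list was called between ages or for the interaction.

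Cytochrome P450 genes known to respond to foreign compounds, which act upstream of glutathione conjugation in detoxification, were called in both directions. Of 25 listed 24 were tested, of which 5 were higher and 6 lower in old mutants, and 4 higher and 8 lower in young mutants, with list medians of -0.23 and -0.28. As a share of those tested this was 45.8% and 50.0%, beside 4.17% and 4.81% of all genes. The list was chosen with earlier results of these data known, so these shares are a description only. Cyp12d1-p read 78.2 ± 12.6 normalised counts in old mutants against 6.47 ± 1.59 in old wild type (log2 change 3.42 ± 0.33, limma adjusted p = 0.000111) and 57.8 ± 8.02 in young mutants against 6.80 ± 3.28 in young wild type (2.99 ± 0.33, adjusted p = 0.000230). It was called without the libraries with male transcripts too (3.63 at the young age, adjusted p = 0.00822). Cyp6d2 had 2.14 ± 0.25 at the old age (adjusted p = 0.000372) and 2.11 ± 0.25 at the young age (adjusted p = 0.000371). Cyp4p1 was lower in old mutants (-1.43 ± 0.16, adjusted p = 0.000231) and in young mutants (-1.35 ± 0.16, adjusted p = 0.000320, and 0.136 without the libraries with male transcripts). The other lower genes at the old age were Cyp6a8, Cyp6a20, Cyp6a23, Cyp12a5 and Cyp28a5, with log2 changes between -1.77 and -0.61. These 5 were also lower in young mutants with all libraries, as were Cyp6a17 and Cyp309a1, and none of the lower calls at the young age held without the libraries with male transcripts. Cyp4p2 was higher at both ages from low counts in wild type, 4.79 ± 2.67 at the old age (2.10 ± 0.54 and 1.96 ± 0.54, adjusted p = 0.0431 and 0.0460). Cyp6g1 was called higher at the old age, with means of 4095 in mutants against 2511 in wild type (0.71 ± 0.11, adjusted p = 0.00262). Cyp4e3 was higher in old mutants (2.26 ± 0.30, adjusted p = 0.000919) and in young mutants (1.21 ± 0.30, adjusted p = 0.0324). It was the single listed gene called between ages, higher in old flies in mutants (2.12 ± 0.30, adjusted p = 0.00128) and in wild type (1.08 ± 0.30, adjusted p = 0.0499). Without the libraries with male transcripts the age call in mutants held (2.12, adjusted p = 0.0312) and that in wild type was lost (1.49, adjusted p = 0.186). In that fit the genotype calls numbered 11 at the old age and 2 at the young age (Cyp12d1-p and Cyp6d2), where 4.53% and 1.01% of all genes were called.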

How the data were processed

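The deposited values are a normalised signal per gene and library: per the submitters' processing notes and the study's methods, the authors used STAR 2.7.3a to align reads to BDGP6, counted them with HTSeq 0.11.2 and divided counts by DESeq2 1.20.0 size factors. In 100% of values the read number came out whole within 0.01. The counting's use of strand was not given in the sources used here. All samples carry the same text on 2 library preparations, so a preparation batch was not testable.

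Of 17714 rows, 11403 genes with at least 10 in at least 3 libraries were fitted as log2(value + 1), which understates changes of low genes, in 1 model of 4 groups (limma 3.58.1, R 4.3.3, eBayes with trend, two-sided, Benjamini-Hochberg adjustment over all 11403 genes). Calls needed an adjusted p under 0.05 and a fold over 1.5 between genotypes or 2 between ages, and the adjusted p alone for the interaction. For calls the fold was that of the fitted log2 change, while folds printed in the text are ratios of group means. P-values measure the spread between libraries, which are not stated to come from separate cultures. Recovered reads were tested with edgeR 4.0.16, which called 428 genes for genotype at the old age, 525 at the young age, 173 for age in mutants, 327 for age in wild type and 6 for the interaction, and with DESeq2 1.42.0. Other alternatives changed the pseudocount, filter, scaling, library weights, libraries in the model, a replicate block and each replicate left out. The omission of the 3 libraries with male transcripts was added once the data were seen. The procedure was also run on simulated counts, with changes placed only in genes above a set mean level and no library set apart by male transcripts. The outcome is not given here, and that run does not bear on low genes or on those libraries. Positions and exon lengths come from Ensembl release 115 of the same assembly, in which 11360 tested symbols and all 35 members were found. Members and lists were chosen with earlier results of these data known. Named with values in every library were members called in at least 1 comparison, GstD1, GstE14 and GstS1, and, with changes and in part group means, up to 4 called genes per list and comparison by size of change. CG10035, CG16836, Cyp6g1, the further P450 genes that were lower, and members given with changes alone, were singled out after their values were seen.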

Additional observations from a re-analysis of the deposited data

How the results depend on the processing

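No alternative reversed a called direction among the glutathione S-transferases. For genotype at the young age, 5 were called, against 12 with library weights, 1 without the 3 libraries with male transcripts, and 5 to 9 with 1 replicate left out. At the young age 7 were called with quantile normalisation, with another scaling (TMM) and in DESeq2, and 4 with only the young groups in the model. Over all genes 4.81% were called at the young age, against 23.1% with library weights and 19.9% without wild type young replicate 3, which gave the 9. For genotype at the old age, 6 were called, against 3 with only the old groups in the model and 5 to 7 with 1 replicate left out. For age in mutants, 2 were called, against 1 with a pseudocount of 10, 0 without the filter, 1 with quantile normalisation, 0 in edgeR, 1 with only the mutant groups, 1 without the libraries with male transcripts, and 0 to 1 with 1 replicate left out. For age in wild type, 0 were called, against 2 with quantile normalisation (GstD5 and GstE1), 1 in DESeq2, 1 with library weights, and 0 to 1 with 1 replicate left out. For the interaction, 0 were called, against 3 with library weights and 0 in every fit with 1 replicate left out. Not every pair of same-numbered libraries deviated together, so the numbers were not taken as pairs: between genotypes the correlations were 0.82, -0.87 and 0.88 for young replicates 1, 2 and 3, of which both, 1 and neither of the libraries held male transcripts, and between -0.06 and 0.10 in old flies. With a replicate block the calls were 6 for genotype at the old age, 5 at the young age, 1 for age in mutants, 0 for age in wild type and 0 for the interaction. GstE1 and GstD10 at the old age, GstD8 at the old age and GstE1 at the young age were called under all 18 alternatives. The cause of these shifts was not tested. Leaving out libraries also lowers the number of samples, and the young comparison without male transcripts rests on 1 wild type library. Low Delta genes such as GstD7 and GstD11, near the minimum of 10, are limited by depth.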
